A study of Mus musculus with 10 samples.

Results

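Cytosolic ribosomal protein genes were described across 10 arrays of sorted mouse leukaemia cells. A gene was taken as a member where a probe set of the array carried 1 gene symbol, and that symbol had the form Rpl or Rps with a number, or was Rplp0, Rplp1, Rplp2 or Rpsa. Of 18193 genes with such a probe set, 49 met the rule, 26 of the large subunit and 23 of the small subunit. For each gene the probe set with the highest mean log2 signal over the 10 arrays was used. Rps4l and Rps16 stayed at or under the dim-signal level (each array's 40th percentile of log2 signal) and were left out by the filter, so 47 of the 14581 tested genes were members. A further 28 symbols of this form occur on the array only in probe sets shared with another symbol and are not members, Rplp1, Rpl3, Rpl5 and Rpl10 have no value here for want of a probe set of their own, and the shared probe sets are described only together.

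The cells came from acute promyelocytic leukaemia of PML-RARα transgenic FVB N/J mice, 8 to 10 weeks old, and were marked with GFP by a retrovirus. They were grown in syngeneic recipients, and GFP-positive bone marrow cells were sorted by flow cytometry. The untreated subsets are labelled SC, PD and TD (groups UNSC, UNPD and UNTD), and the subsets labelled PD and TD were also taken after all-trans retinoic acid (ATRA) at 10 mg/kg (groups RAPD and RATD). The labels give the treatment as 5 days in one place and 3 to 5 days in another, and they do not spell out SC, PD or TD. All 5 groups carry the same oncogene and the same viral mark, and no group of normal cells was analysed here. Each group had 2 arrays, called biological replicates in the labels. Nothing in the labels says whether replicates came from separate primary leukaemias or recipients, so p-values measure the spread between these arrays.

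Ribosomal proteins bind ribosomal RNA in the nucleolus and cytoplasm and make up the small subunit, which decodes mRNA, and the large subunit, which joins amino acids. Their mRNAs are among the most abundant of a growing cell, come from short genes, and are made in matched amounts. Their translation is controlled together through a run of pyrimidines at the mRNA's start, and loss of a single copy of several of them causes Diamond-Blackfan anaemia, a failure of red cell production.

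RefSeq promoter sequence was at hand for 42 of the 47 members, as windows from 250 bases before to 50 bases after the annotated start (build GRCm38.p6). The 7 letters CCGGAAG, the core that ETS factors bind, were found on either strand in 21 of 42 members, and in 9.93% of the 27025 genes with a window. The letters AAGATGGC, a YY1-type motif, were found on either strand in 4 members (9.52%) and in 3.19% of all genes. The pyrimidine run CTCTTTC, read on the sense strand only, stood in 5 members (11.9%) and in 4.60% of all genes, and TATAAA on either strand in 6 members (14.3%) against 15.7% of all genes. CTCTTTC was sought as that exact string anywhere in the window, so its share does not measure the pyrimidine run at the mRNA's start. These shares are descriptions of letters in a window and not of binding. The 6 windows of 140 bases, 110 before the start and 30 after it, are printed 5′ to 3′ on the gene's strand with the motif in capitals. They belong to the members the results turn on: Rps7 and Rpl7l1, which passed the test in more than 1 comparison, and Rpl38 and Rplp2 as members that did not. Rps27 and Rpl39l, each read by 1 probe set of lower signal, went against the others.
Rps7 (chr12:28635924-28636063, minus strand): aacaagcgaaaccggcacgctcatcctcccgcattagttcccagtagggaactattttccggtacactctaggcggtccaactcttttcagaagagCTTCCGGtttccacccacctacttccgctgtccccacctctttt
Rpl7l1 (chr17:46782627-46782766, minus strand): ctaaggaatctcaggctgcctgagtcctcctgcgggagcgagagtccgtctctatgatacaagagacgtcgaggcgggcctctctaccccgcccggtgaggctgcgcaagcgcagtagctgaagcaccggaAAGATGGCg
Rps27 (chr3:90213619-90213758, minus strand): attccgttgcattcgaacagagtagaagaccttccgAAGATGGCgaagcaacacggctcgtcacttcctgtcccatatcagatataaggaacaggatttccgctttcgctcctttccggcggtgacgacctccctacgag
Rpl38 (chr11:114668470-114668609, plus strand): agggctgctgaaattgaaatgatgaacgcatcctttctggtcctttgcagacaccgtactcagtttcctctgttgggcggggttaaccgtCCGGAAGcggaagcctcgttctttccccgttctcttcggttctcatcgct
Rplp2 (chr7:141447541-141447680, plus strand): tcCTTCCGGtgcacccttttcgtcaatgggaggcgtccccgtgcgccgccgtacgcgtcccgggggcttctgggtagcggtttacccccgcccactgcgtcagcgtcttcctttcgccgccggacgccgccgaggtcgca
Rpl39l (chr16:10170118-10170257, plus strand): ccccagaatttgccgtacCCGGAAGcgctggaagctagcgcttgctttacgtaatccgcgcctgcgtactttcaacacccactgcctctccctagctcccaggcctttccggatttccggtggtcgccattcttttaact
CCGGAAG or its reverse complement CTTCCGG stood in the windows of Rps7, Rpl38, Rplp2 and Rpl39l, and AAGATGGC in those of Rpl7l1 and Rps27. Rps7 and Rpl39l both hold the former, and their values over the 10 arrays, given later, differ in direction.

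Most members lay at the top of the array's range. The mean log2 signal was at least 14 for 36 of the 47, which are called the bright members below, and the highest value of any probe set on an array was between 15.42 and 15.95. On each array 36 or 37 of the 47 probe sets were in the top 2% of all probe sets, the part that the array's scaling leaves out. Together the 47 probe sets carried between 2.65% and 3.52% of the summed linear signal. The other 11 members were Rpl12, Rpl14, Rpl27a, Rpl37, Rpl39, Rpl39l, Rpl3l, Rpl7l1, Rps25, Rps27 and Rps6, and of all members only Rpl39l and Rpl3l fell to the dim-signal level on any array. How near a bright probe set was to saturation was not measured by the deposited values.

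The bright members rose and fell together from array to array. The median log2 signal of the 47 members was 14.73 and 14.81 in UNSC, 15.19 and 15.14 in UNPD, 14.90 and 14.58 in UNTD, 14.88 and 15.20 in RAPD and 14.91 and 14.86 in RATD. Both UNPD arrays and replicate 2 of RAPD were thus the highest, and replicate 2 of UNTD the lowest. For 34 of the 36 bright members UNPD replicate 1 was among the 3 highest arrays, for 34 RAPD replicate 2 and for 26 UNPD replicate 2, and UNTD replicate 2 was the lowest array for 34. The group mean was highest in UNPD for 36 of the 47 members and lowest in UNSC for 20 and in UNTD for 19. Over the 10 arrays the pairwise correlation of bright members had a median Pearson r of 0.89 and ran from 0.23 to 0.995 over 630 pairs. These correlations share the arrays' own scaling and depth of signal. Rpsa, the laminin-receptor-like protein of the small subunit, followed the median of the other bright members most closely (r = 0.985), and Rplp0 least (r = 0.66).

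**Figure D1:**
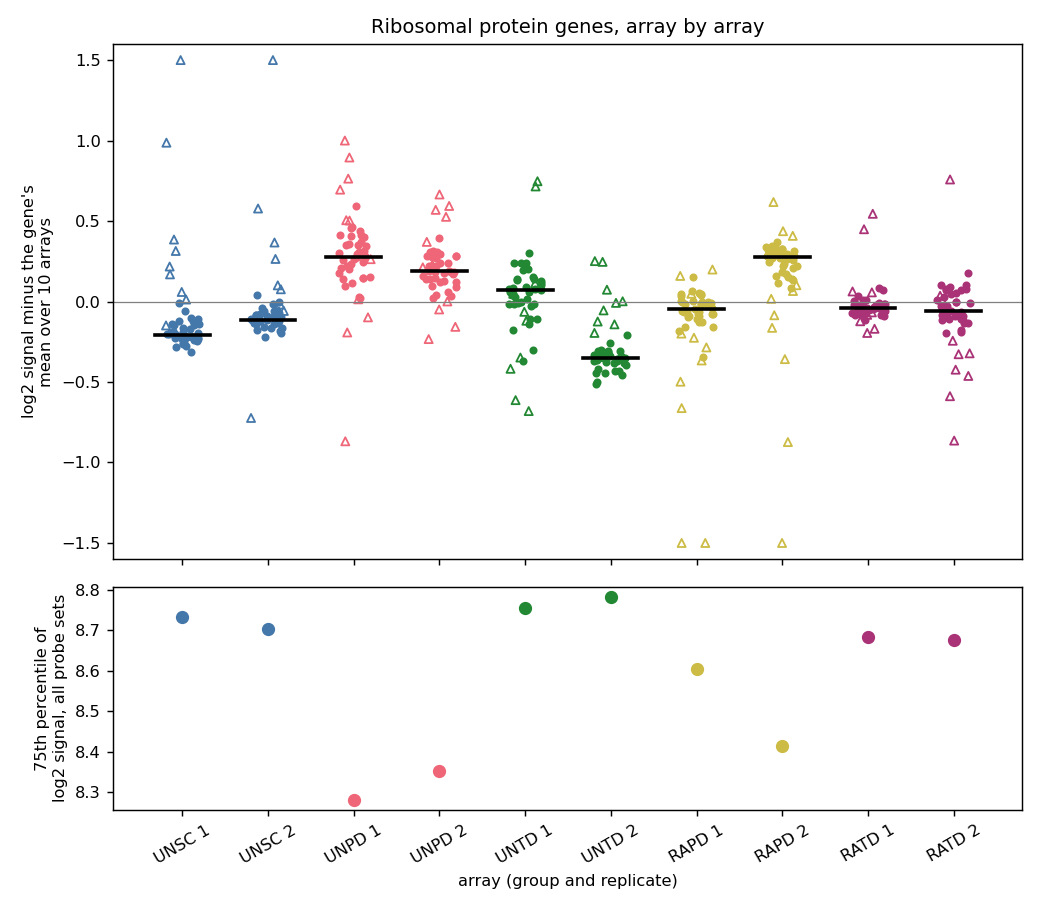
Upper panel: log2 signal of each tested ribosomal protein gene minus its own mean over the 10 arrays, by array; filled circles are the 36 genes of mean log2 signal at least 14, open triangles the other 11 (drawn at ±1.5 where beyond it), and black bars the median of the 36. Lower panel: the array's 75th percentile of log2 signal over all probe sets; the 3 arrays with the highest ribosomal protein medians (15.14 to 15.20) have the 3 lowest percentiles (8.28 to 8.41).

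Replicates of a group did not always lie together. In UNTD replicate 1 was above replicate 2 for 40 of 47 members, by a median of 0.40 log2. In RAPD replicate 2 was above replicate 1 for 45 of 47, by a median of 0.32. In UNSC, UNPD and RATD the median gap between replicates was below 0.09. The median gap over the other genes of mean log2 at least 9 was 0.03 in UNTD and 0.13 in RAPD, below the members' gaps. Most of those genes are dimmer than the members, and the gap over other genes of the members' level was not computed. Some such genes also stood apart in UNTD, among them Eef1a1 (15.47 and 14.90) and Tpt1 (15.54 and 14.82). Eif4g2 (14.50 and 14.40) did so less. The 75th percentile of all probe sets, a measure of the whole array, was 8.73 and 8.70 in UNSC, 8.28 and 8.35 in UNPD, 8.76 and 8.78 in UNTD, 8.60 and 8.41 in RAPD and 8.68 and 8.68 in RATD. Its order over arrays was close to the reverse of the members' order at the top, and its part in the results was tested only through the alternatives given beside them.

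Genes that are no members also followed the same course. Among 6286 other genes of mean log2 at least 9, 54 had r of at least 0.9 with the median of the bright members over the 10 arrays. The 5 closest were Atp5g3, a subunit of mitochondrial ATP synthase (r = 0.988), Vps28, part of the ESCRT-I sorting complex (0.988), Sf1, a splicing factor (0.978), Sec61b, a subunit of the protein translocon (0.973), and Fau, which encodes a ribosomal protein fused to a ubiquitin-like protein (0.973). Fau, a small-subunit gene that the symbol rule leaves out, read 14.50 and 14.56 in UNSC, 14.97 and 14.95 in UNPD, 14.91 and 14.35 in UNTD, 14.69 and 15.00 in RAPD and 14.64 and 14.73 in RATD.

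**Figure D2:**
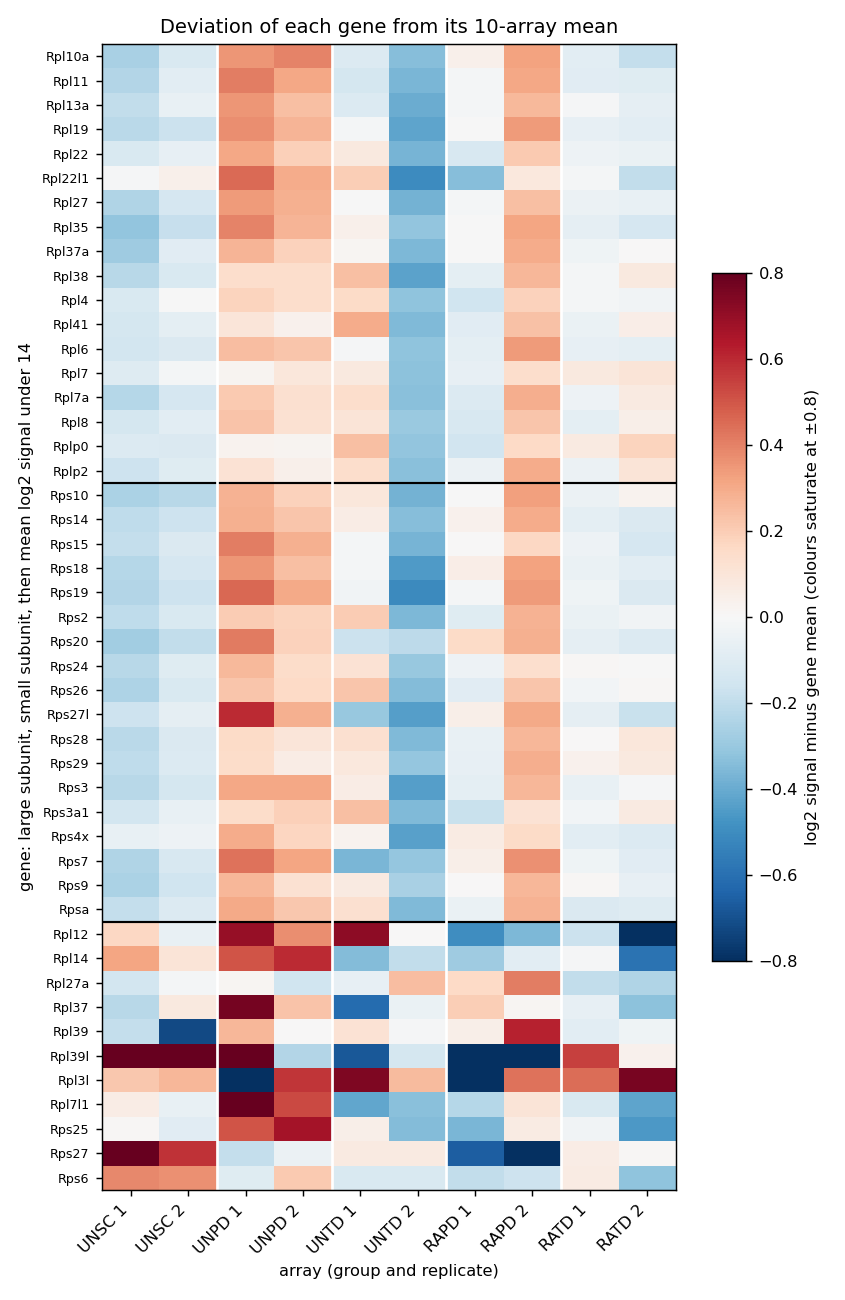
Heat map of the 47 tested genes (rows) on the 10 arrays (columns); colour is log2 signal minus the gene's mean over the arrays, saturating at ±0.8, and black lines divide large subunit, small subunit and the 11 genes of mean log2 signal under 14. The upper blocks share one column pattern, high in both UNPD arrays and RAPD replicate 2 and low in UNTD replicate 2. In the lowest block Rps27, Rps6, Rpl39l and Rpl3l do not follow it (r with the bright members' median from −0.57 to −0.03). The others there follow it to unlike degrees, with r from 0.11 (Rpl27a) to 0.69 (Rps25).

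Members were mostly higher in UNPD than in UNSC, the untreated subsets labelled PD and SC. On the deposited scale 43 of 47 differences were positive, with a median of 0.37 log2, and 42 genes had both UNPD arrays above both UNSC arrays, where 41.4% of all tested genes did. The limma test called 12 members higher and 1 lower (adjusted p under 0.05 over 14581 genes), 27.7% of the members, and it called 25.8% of all tested genes (10.6% higher and 15.2% lower). The share of members called was therefore close to the background, while the direction was mostly upward. Over all tested genes the median difference was 0.20. Over the 133 other genes of mean log2 at least 14 the median was 0.45, against 0.39 for the 36 bright members. Of those 133 genes 123 had a positive difference, as did all 36 bright members. In sorted bulk cells, fewer cells of a type and less RNA per cell cannot be told apart.

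This direction depended on the scale. With all arrays brought to a common 75th percentile the members' median was 0.77 and that of all tested genes 0.60. With a common median of the other bright genes the members' was 0.48. After quantile normalization the members' median was 0.06, below the 0.31 of all tested genes. A fit that took the array's 75th percentile as a further term gave −0.31, and no member and no other gene was called. The count of 13 also rested on single arrays: it fell when any UNSC or UNPD array was left out, with medians between 0.34 and 0.44. The count over all tested genes fell in the same fits.

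Among proteins of the small subunit, Rps7, which assembles early and is a Diamond-Blackfan anaemia gene, read 14.76 and 14.88 in UNSC, 15.44 and 15.32 in UNPD, 14.64 and 14.69 in UNTD, 15.05 and 15.37 in RAPD and 14.97 and 14.92 in RATD. Both UNPD arrays were above both UNSC arrays and both UNTD arrays. It was 1.48-fold higher in UNPD than in UNSC (log2 difference 0.56 ± 0.15 SE, adjusted p = 0.0182), and the call was lost when any one of the 4 compared arrays was left out. Rps20, which sits in the head of the small subunit, read 14.83 and 14.91 in UNSC and 15.52 and 15.30 in UNPD. The difference was 0.54 ± 0.14 (adjusted p = 0.0172) for this probe set, but it turned to −0.86 (adjusted p = 0.00578) with the mean of the gene's probe sets, as described below. Rps19, whose loss is the best known cause of Diamond-Blackfan anaemia, read 14.59 and 14.66 in UNSC and 15.28 and 15.13 in UNPD, a difference of 0.58 ± 0.19 (adjusted p = 0.0377).

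Of the 20 tested small-subunit core genes, 5 were called higher and 1 lower in UNPD than in UNSC, with a median of 0.41. Rps20 is counted among the higher ones although its direction was not settled. Rps15 (0.50) and Rps25 (0.62) were the other called genes. The 5 genes at the mRNA entry and exit, Rps2, Rps3, Rpsa, Rps26 and Rps28, lay between 0.29 and 0.49 and none was called. Rps24 (0.36 ± 0.17) and Rps4x (0.28 ± 0.17), the X-linked form of protein S4, were not called either (adjusted p = 0.134 and 0.238).

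In the large subunit, Rpl10a, of the stalk that borders the tRNA exit site, read 14.75 and 14.89 in UNSC, 15.36 and 15.41 in UNPD, 14.90 and 14.67 in UNTD, 15.05 and 15.33 in RAPD and 14.93 and 14.82 in RATD. It was 1.48-fold higher in UNPD than in UNSC (0.56 ± 0.16, adjusted p = 0.0206). Rpl11, which with the 5S ribosomal RNA can bind the p53 regulator Mdm2, read 14.36 and 14.51 in UNSC, 15.00 and 14.90 in UNPD, 14.45 and 14.22 in UNTD, 14.57 and 14.90 in RAPD and 14.50 and 14.49 in RATD. Its difference between UNPD and UNSC was 0.52 ± 0.16 (adjusted p = 0.0334). For both genes the 2 UNPD arrays did not overlap UNSC or UNTD, while RAPD replicate 2 lay at or near their level. Of 22 tested large-subunit core genes 5 were called higher and none lower, with a median of 0.36: Rpl10a, Rpl11, Rpl19, Rpl27 and Rpl35. At the peptide exit tunnel 2 of 5 tested genes were called, Rpl35 (0.58) and Rpl19 (0.52).

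The P stalk, which recruits the elongation factors, gave no call. Rplp0, its base, read 15.11 and 15.11 in UNSC, 15.25 and 15.24 in UNPD, 15.46 and 14.91 in UNTD, 15.07 and 15.38 in RAPD and 15.29 and 15.40 in RATD. Its highest array was UNTD replicate 1 and its lowest UNTD replicate 2. The difference between UNPD and UNSC was 0.14 ± 0.19 (adjusted p = 0.639), and none of the 3 tested stalk genes, Rplp0, Rplp2 and Rpl12, was called in any of the 6 comparisons. Rplp2 read 15.20 and 15.28 in UNSC, 15.49 and 15.41 in UNPD, 15.51 and 15.04 in UNTD, 15.32 and 15.67 in RAPD and 15.33 and 15.47 in RATD. Rplp0 is often used as a reference gene, and its spread between the UNTD replicates was larger than its differences between groups. Rpl38 (0.31 ± 0.21, adjusted p = 0.304) and Rpl41 (0.18 ± 0.20, adjusted p = 0.570) likewise did not pass the test.

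**Figure D3:**
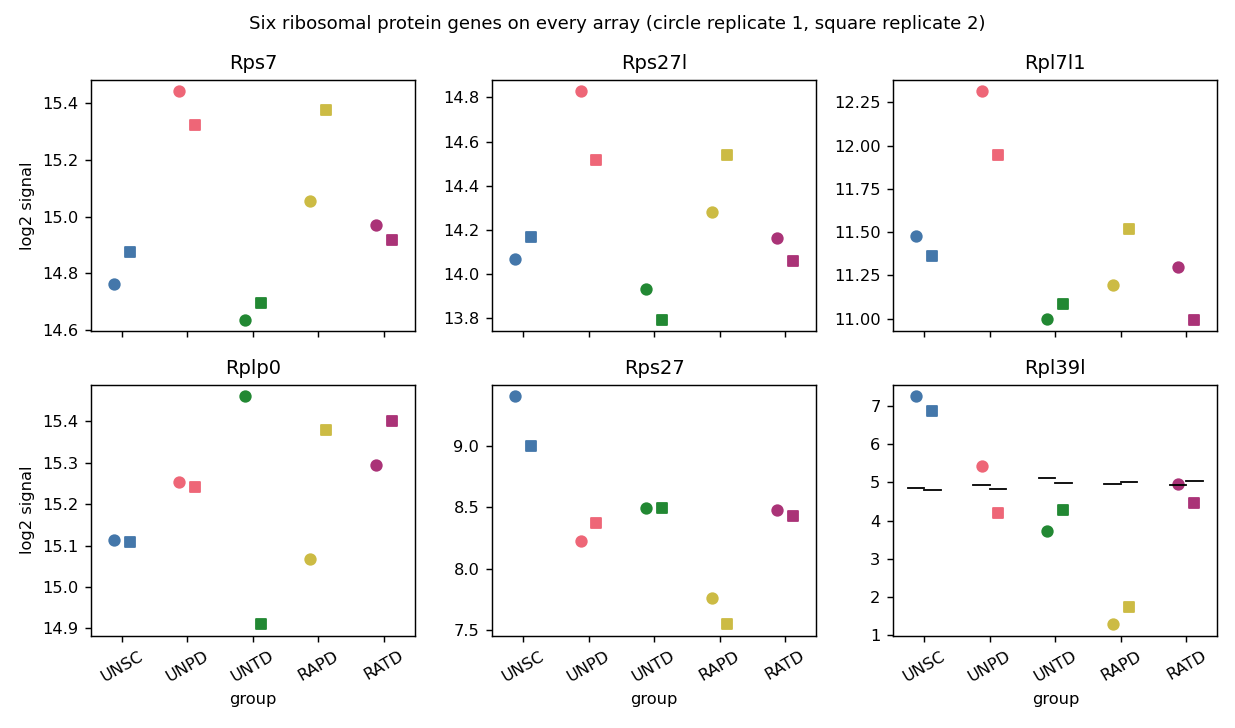
Log2 signal of 6 genes on every array, by group; circles are replicate 1, squares replicate 2, each panel has its own vertical scale, and black ticks in the Rpl39l panel mark each array's dim-signal level. Rps7, Rps27l and Rpl7l1 have both UNPD arrays above UNSC and UNTD, Rplp0 does not, and Rps27 and Rpl39l are highest in both UNSC arrays.

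Paralogs of core members, genes that encode an alternative form of a ribosomal protein, did not move as one. Rpl7l1, a relative of Rpl7 with a part in making the large subunit, read 11.48 and 11.36 in UNSC, 12.31 and 11.95 in UNPD, 11.00 and 11.09 in UNTD, 11.19 and 11.52 in RAPD and 11.30 and 11.00 in RATD. Both UNPD arrays were above the other 8. It was 1.64-fold higher in UNPD than in UNSC (0.71 ± 0.19, adjusted p = 0.0172), a call that was lost without either UNSC array or without UNPD replicate 1. Rpl7 itself read 14.73 and 14.81 in UNSC and 14.85 and 14.92 in UNPD, a difference of 0.12 that was the lowest of the bright members. Rps27l, the alternative form of Rps27, read 14.07 and 14.17 in UNSC, 14.83 and 14.52 in UNPD, 13.93 and 13.79 in UNTD, 14.28 and 14.54 in RAPD and 14.16 and 14.06 in RATD. Its difference between UNPD and UNSC was 0.56 ± 0.16 (adjusted p = 0.0248). Rpl22l1, the alternative form of Rpl22, differed by 0.36 ± 0.22 and Rpl22 by 0.34 ± 0.18, and neither was called.

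There were 4 members lower in UNPD than in UNSC, and all 4 were among the 11 of lower signal. Rps27, a zinc-finger protein of the small subunit, read 9.41 and 9.0 in UNSC, 8.23 and 8.37 in UNPD, 8.49 and 8.49 in UNTD, 7.76 and 7.55 in RAPD and 8.48 and 8.43 in RATD. The gene has only 1 probe set of its own, with a mean log2 of 8.42, far below the bright members. Whether that probe set reports the main Rps27 mRNA was not tested. The UNSC arrays were the 2 highest of the 10 and the RAPD arrays the 2 lowest. It was 1.87-fold lower in UNPD than in UNSC (−0.90 ± 0.23, adjusted p = 0.0139). The call was lost without UNSC replicate 1 or UNPD replicate 1, with quantile normalization (−0.49, adjusted p = 0.13) and with a common 75th percentile (−0.50, adjusted p = 0.122), and over all alternatives the adjusted p ran from 0.00327 to 0.999. Rps6, the target of S6 kinase, read 12.04 and 12.03 in UNSC, 11.56 and 11.87 in UNPD, 11.54 and 11.54 in UNTD, 11.46 and 11.50 in RAPD and 11.72 and 11.34 in RATD. Its difference of −0.32 ± 0.17 between UNPD and UNSC did not pass (adjusted p = 0.208). Rpl3l, the form of Rpl3 known from striated muscle, was near the dim-signal level and differed by −0.39 ± 0.88 (adjusted p = 0.785).

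Rpl39l, the form of Rpl39 known from testis, was highest in UNSC. It read 7.26 and 6.87 in UNSC, 5.42 and 4.19 in UNPD, 3.74 and 4.28 in UNTD, 1.29 and 1.73 in RAPD and 4.96 and 4.46 in RATD. Both UNSC arrays lay above the dim-signal level, of the UNPD and RATD arrays 1 each did, and no UNTD or RAPD array. It was at least 4.07-fold lower in UNTD than in UNSC, measured against the dim-signal level (fitted log2 difference −3.06 ± 0.80, adjusted p = 0.0361), and this call was lost when any one of those 4 arrays was left out. Its difference between UNPD and UNSC did not pass (−2.26 ± 0.80, adjusted p = 0.056). Rpl39, the main form, read 8.33 and 7.80 in UNSC and 8.79 and 8.53 in UNPD, and was not called in any comparison.

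Members often have further probe sets, and the dim ones did not always follow the bright one. The 47 used probe sets included 14 with the suffix x and 2 with the suffix s, which mark probes that can match other transcripts. For 22 genes 53 further probe sets passed the filter, and 46 of the 53 had the same sign of difference between UNPD and UNSC as the used one. Rps20 was the clearest exception. Another bright probe set read 14.89 and 14.92 in UNSC and 15.33 and 15.24 in UNPD, in step with the used one. A dim one read 8.15 and 7.90 in UNSC and 5.93 and 5.92 in UNPD, and another dim one 7.88 and 7.86 against 5.23 and 5.97, both lower in UNPD. With the mean of its probe sets Rps20 was lower in UNPD than in UNSC by −0.86 (adjusted p = 0.00578), and with probe sets of suffix x or s left out by −2.10 (adjusted p = 0.00211), so its direction was not settled. The adjusted p for Rps20 ran from 0.00211 to 0.999 over all alternatives. Of the 110 probe sets that a ribosomal protein symbol shares with another symbol, 108 passed the filter. Their median difference was 0.39, and all 77 of them with mean log2 at least 14 were positive.

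**Figure D4:**
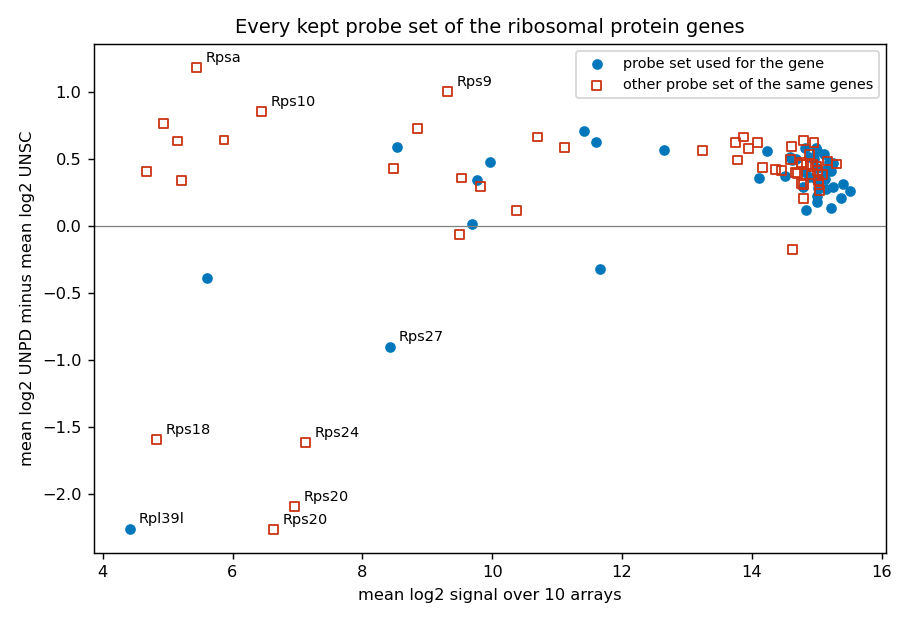
Mean log2 signal in UNPD minus that in UNSC (vertical axis) against the mean over the 10 arrays (horizontal axis) for the 100 kept probe sets of the ribosomal protein genes; filled circles are the probe sets used, open squares the other probe sets of the same genes, and names mark differences beyond 0.85. Bright probe sets cluster above 0, whereas probe sets of lower signal scatter to both sides, with 2 of Rps20, 1 of Rps24, 1 of Rps18, Rps27 and Rpl39l well below 0; on a quantile-normalized scale the median of the used probe sets falls to 0.06.

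UNTD, the untreated subset labelled TD, was lower than UNPD for 44 of 47 members. The median difference was −0.39, with −0.13 over all tested genes and −0.33 over the 133 other genes of mean log2 at least 14. Of those 133 genes 114 were also lower in UNTD. The limma test called 16 members lower and none higher, where 35.3% of all tested genes were called (17.2% lower and 18.0% higher). For 29 members both UNTD arrays were below both UNPD arrays, as for 38.2% of all tested genes, and for 1 both were above, as for 30.5%. After quantile normalization the members' median was −0.11 against −0.32 for all tested genes, so the members then stood above the rest, and with the array's percentile as a further term it was 0.42 with no call. Leaving out UNPD replicate 1, UNPD replicate 2 or UNTD replicate 2 lowered the count of called members, with medians of −0.33, −0.42 and −0.18. Without UNTD replicate 1 more members were called, with a median of −0.55. The count over all tested genes fell in each of these fits. This comparison shares the UNPD arrays with the one before, so its values are not independent of it.

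Of the 7 called members followed through the alternatives in this comparison, 3 kept their call whichever of the 10 arrays was left out. Rpl7l1 was 2.12-fold lower in UNTD than in UNPD (−1.09 ± 0.19, adjusted p = 0.00111, and between 0.000583 and 0.0214 with an array left out). Rps27l was 1.75-fold lower (−0.81 ± 0.16, adjusted p = 0.00234, and between 0.00138 and 0.0408). Rps7 was 1.64-fold lower (−0.72 ± 0.15, adjusted p = 0.00337, and between 0.00132 and 0.0435). For each of the 3 the UNTD arrays were both below every UNSC and UNPD array. In the fit with the array's percentile as a further term the signs of Rps27l (0.00) and Rps7 (0.04) turned, and neither was called there.

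Core genes other than Rps7 were called as well. Rpl10a fell by 0.60 and Rpl11 by 0.61 on the log2 scale, and Rps19 by 0.65. Rpl13a, which in other settings has a role outside the ribosome in silencing mRNAs of inflammation, read 15.54 and 15.43 in UNPD and 15.08 and 14.79 in UNTD, a difference of −0.55 (adjusted p = 0.0188). Of 22 large-subunit core genes 8 were called lower, among them Rpl14 (−0.82) and Rpl37 (−0.83), and of 20 small-subunit core genes 6, among them Rps25 (−0.73). Rpl14, Rpl37 and Rps25 are of lower signal, each with only 1 probe set of its own (mean log2 9.77, 12.65 and 11.60). Whether these probe sets report the main mRNAs of their genes was not tested. Of the 11 tested Diamond-Blackfan anaemia genes 5 were called lower. No call was made in the P stalk, where Rplp0 differed by −0.06 ± 0.19 (adjusted p = 0.840), or among the 5 genes at the mRNA entry and exit. Rps27 (0.19 ± 0.23), Rpl27a (0.16 ± 0.19) and Rpl3l (0.65 ± 0.88) were the 3 members with a positive difference, and none was called.

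UNTD and UNSC differed little in these genes. The median difference was −0.00 over the 47 members, with 23 positive and 24 negative, and −0.04 over all tested genes. Rpl39l was the 1 called member (2.13% of the members), where 8.15% of all tested genes were called. The bright members lay between −0.25 (Rps27l) and 0.12 (Rps26), and none was called. The median moved to −0.20 without UNTD replicate 1 and to 0.19 without UNTD replicate 2, so the UNTD replicates stood on either side of UNSC. In this comparison Rps27 (9.41 and 9.0 in UNSC, 8.49 and 8.49 in UNTD) and Rps6 (12.04 and 12.03, 11.54 and 11.54) had both UNTD arrays below both UNSC arrays without passing the test. This held for 7 members and for 32.3% of all tested genes.

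**Figure D5:**
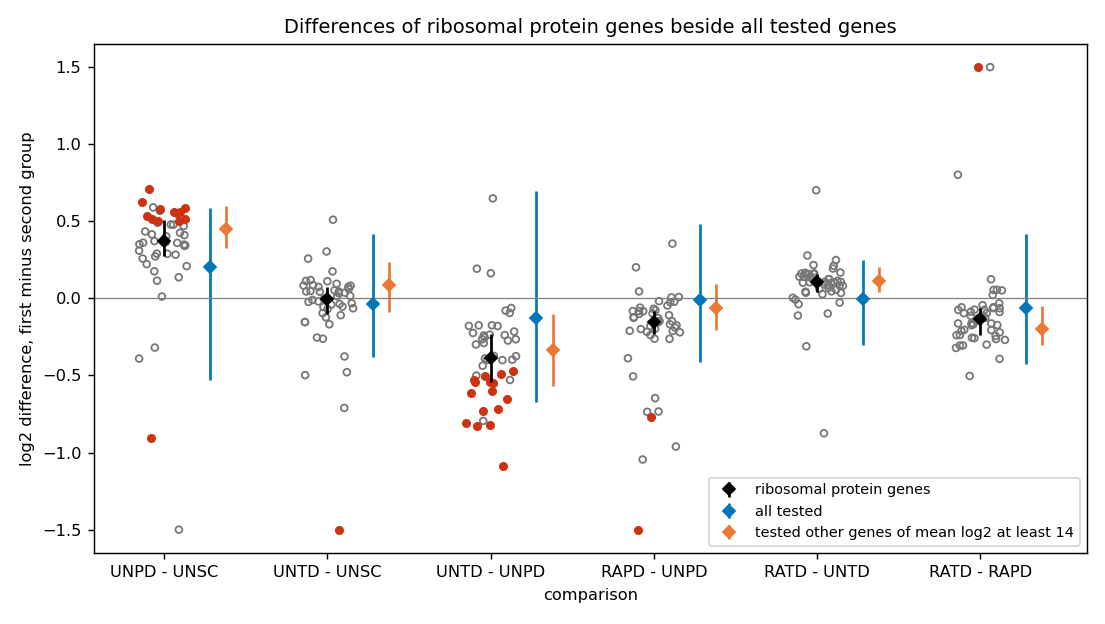
Log2 difference of each tested ribosomal protein gene in 6 comparisons, first minus second group; filled red circles passed the limma test, open circles did not, values beyond ±1.5 are drawn at ±1.5, and diamonds with bars give the median and quartiles of the ribosomal protein genes (black), of all tested genes (blue) and of the 133 other genes of mean log2 signal at least 14 (orange). The black and orange medians share a sign in every comparison but UNTD minus UNSC (−0.00 and 0.09). In RAPD minus UNPD they are −0.15 and −0.06. After quantile normalization the black median for UNPD minus UNSC falls from 0.37 to 0.06.

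ATRA-treated cells were compared with untreated cells of the same label. In the PD subset 42 of 47 members were lower in RAPD than in UNPD, with a median of −0.15 against −0.01 over all tested genes. So were 87 of the 133 other genes of mean log2 at least 14, with a median of −0.06. The test called 2 members lower (4.26%), Rpl7l1 and Rpl39l, where 8.04% of all tested genes were called (3.19% lower and 4.86% higher). For 16 members both RAPD arrays were below both UNPD arrays, as for 28.5% of all tested genes, and for 1 above, as for 24.8%. Rpl7l1 was 1.71-fold lower (−0.77, adjusted p = 0.0339), but it kept its call in 3 of the 10 fits with an array left out and had adjusted p between 0.0128 and 0.639 over all alternatives. Rpl39l had a fitted difference of −3.29 ± 0.80 (adjusted p = 0.0328), with 1 of 2 UNPD arrays and no RAPD array above the dim-signal level, so no fold is given. That call, too, was kept in 3 of the 10 fits. The members' median rested on the RAPD replicates: it was −0.01 without RAPD replicate 1 and −0.31 without RAPD replicate 2. More members, and more of all tested genes, were called in the latter case. Not all of the 10 fits with an array left out called a member. Quantile normalization gave −0.08 and the percentile term 0.20. Rpl27a (0.36 ± 0.19), Rpl39 (0.20 ± 0.27) and Rplp2 (0.05 ± 0.18) led the 5 members with a positive difference, none of them called.

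In the TD subset all 36 bright members were higher in RATD than in UNTD, by 0.00 (Rpsa) to 0.28 (Rps7), and the median over the 47 was 0.10. That median was 0.02 after quantile normalization and turned to −0.04 with the array's percentile as a further term. The limma test called none of them, 1 member had an unadjusted p under 0.05, and 0.288% of all tested genes were called. The 133 other genes of mean log2 at least 14 had a median of 0.11, and 105 of them were higher in RATD. Without UNTD replicate 1 the members' median was 0.32 and without UNTD replicate 2 it was −0.10, so the shared sign rested on the low replicate of UNTD. Only 7 members had both RATD arrays above both UNTD arrays, where 19.9% of all tested genes did, and 4 had both below, where 20.3% did. The member of smallest p was Rpl12, of the stalk base, which read 10.69 and 9.98 in UNTD and 9.81 and 9.11 in RATD (−0.87 ± 0.28, adjusted p = 0.271).

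The effects of ATRA in the PD and TD subsets were compared through the interaction term. It was positive for 45 of 47 members with a median of 0.23, none was called by limma (5 had an unadjusted p under 0.05), and 0.240% of all tested genes were called (0.0617% with a positive term). Rpl39l had the smallest p (adjusted p = 0.182), but its term is not sized here because every UNTD and RAPD array had it at or under the dim-signal level. Rpl7l1 followed (0.88 ± 0.27, adjusted p = 0.207). The interaction term was also positive for 104 of the 133 other genes of mean log2 at least 14. With the array's percentile as a further term the members' median of the interaction turned to −0.26. A difference between the subsets in the response of these genes was therefore not shown. Between the treated groups, RATD was lower than RAPD for 39 of 47 members, and for 107 of the 133 other genes of mean log2 at least 14. The members' median was −0.13 (−0.05 after quantile normalization and 0.15 with the percentile term), and 1 member was called (2.13%, against 4.78% of all tested genes). This was Rpl39l, higher in RATD (3.20 ± 0.80, adjusted p = 0.0452), with 1 of 2 RATD arrays above the dim-signal level and the call kept in 1 of 10 fits with an array left out. Rps27 read 8.48 and 8.43 in RATD and 7.76 and 7.55 in RAPD, a gap of 0.80 ± 0.23 that missed the threshold (adjusted p = 0.067).

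Other parts of the translation machinery were set beside the members. Over all tested genes 10.6% were called higher and 15.2% lower in UNPD than in UNSC, 18.0% higher and 17.2% lower in UNTD than in UNPD, and 3.19% lower in RAPD than in UNPD. With the array's 75th percentile as a further term no gene was called in the first 2 of these comparisons. Of the 76 tested mitochondrial ribosomal proteins 43 were called higher in UNPD than in UNSC and none lower, with a median of 0.60, and 66 were called lower in UNTD than in UNPD, with a median of −0.94. Mrpl51 (0.89 ± 0.15) and Mrpl14 (1.02 ± 0.18) had the smallest p in the former, and Mrps24 (−1.49 ± 0.18) in the latter. In RAPD 15 of the 76 were called lower than in UNPD, with a median of −0.61. Of 7 tested elongation factor genes 2 were called higher in UNPD than in UNSC, Eef1d (0.76 ± 0.17) and Eef1b2 (0.48 ± 0.16), and 4 lower in UNTD than in UNPD. Of 11 tested subunits of the initiation factor eIF3 4 were called higher and 1 lower in UNPD than in UNSC, and 8 lower and 1 higher in UNTD than in UNPD. The exception was Eif3a, the scaffold subunit, at −2.08 ± 0.39 in UNPD against UNSC, while Eif3k rose by 0.64 ± 0.15. Other initiation factors went both ways, with Eif4a2, a helicase, at −2.06 ± 0.30 and Eif5 at −1.83 ± 0.31. Of 13 tested genes that control translation of pyrimidine-run mRNAs 2 were called higher and 1 lower in UNPD than in UNSC. Eif4ebp1, an inhibitor of the cap-binding factor Eif4e, rose by 0.90 ± 0.15 and Larp4, an RNA-binding protein, differed by −2.02 ± 0.35.

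The members' genes are short, and other short genes were also higher in UNPD than in UNSC and in UNTD. The median genomic span was 3668 bases for the 47 members and 21268 bases over tested genes. The 669 other genes of mean log2 at least 9 with a span no longer than the members' upper quartile of 4735 bases had a median difference of 0.56 in UNPD against UNSC and −0.69 in UNTD against UNPD, both larger than the members'. Their medians were −0.28 in RAPD against UNPD, 0.05 in RATD against UNTD and −0.32 in RATD against RAPD, where the members had −0.15, 0.10 and −0.13. In UNTD against UNSC they had −0.16 and the members −0.00. Over 6322 tested genes of mean log2 at least 9 the Spearman correlation of span with difference was −0.47 in UNPD against UNSC. It was 0.45 in UNTD against UNPD, 0.38 in RAPD against UNPD and 0.37 in RATD against RAPD. In UNTD against UNSC it was 0.12 and in RATD against UNTD −0.08. The part of gene length in the members' differences was not tested.

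Marker genes of cell types also differed between the groups. Of the promyelocyte list, the labelled cell type, 8 of 8 genes were tested, and their summed signal on the log2 scale was 17.18 to 17.22 in UNSC, 17.52 to 17.58 in UNPD, 16.34 to 16.77 in UNTD, 17.24 to 17.57 in RAPD and 16.72 to 16.76 in RATD. Cd34 was at or under the dim-signal level on both arrays of every group but RAPD. The 7 tested late neutrophil markers of 8 summed to 15.16 to 15.27 in UNSC, 16.32 to 16.46 in UNPD, 15.78 to 16.27 in UNTD, 17.03 to 17.39 in RAPD and 16.76 to 17.33 in RATD. The 8 monocyte and macrophage markers summed to 13.00 to 13.06 in UNSC, 13.38 to 13.46 in UNPD, 15.35 to 15.51 in UNTD, 12.39 to 12.77 in RAPD and 14.04 to 15.25 in RATD. The 6 tested B cell markers of 8 summed to 12.39 to 12.40 in UNSC, 13.41 to 13.85 in UNPD, 10.08 to 10.54 in UNTD, 12.17 to 12.38 in RAPD and 9.55 to 9.60 in RATD. This sum was almost wholly Igll1 and Vpreb1, which encode the surrogate light chain of early B cells. Igll1 read 12.08 and 12.11 in UNSC and 13.72 and 13.28 in UNPD. The other 4, Cd79b, Ms4a1, Pax5 and Ebf1, stayed between 0.34 and 5.89 on every array, near or under the dim-signal level. The 3 tested T and NK cell markers of 7, carried by Nkg7 with Cd3g under the dim-signal level in UNSC and UNPD, summed to 12.28 to 12.43 in UNSC, 12.70 to 12.94 in UNPD and 8.89 to 9.86 in UNTD, and the 2 tested erythroid markers of 8 to 5.01 to 5.71, 7.13 to 7.75 and 5.72 to 6.86. Among the untreated groups the promyelocyte, late neutrophil, B cell, T and NK cell and erythroid sums were thus all highest in UNPD, as were the bright members, and the monocyte and macrophage sum was highest in UNTD. Gene by gene the late neutrophil list was mixed, with a median difference of 0.18 in UNTD against UNPD. In it 1 gene was called higher in UNTD (Cxcr2, 1.28 ± 0.29) and 2 lower, where 18.0% and 17.2% of all tested genes were. The part of these marker genes in the members' differences was not tested.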

How the data were processed

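RNA was measured on 10 single-colour Affymetrix arrays, 2 for each of 5 sorted groups. Per the labels' protocols, 6 µg of Trizol-extracted total RNA went into each biotin-labelled cRNA. The deposited values are log2 signals of 45037 probe sets, made by the authors with MAS5 per the submitters' processing notes; no version of it is stated there, and the log2 scale was judged from the values' range. MAS5 scales each array to a trimmed mean that leaves out the lowest and highest 2% of probe sets. No detection calls came with the values.

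Probe sets were named through GEO's platform annotation: 34945 have 1 gene symbol, 932 several and 9160 none. A probe set was kept (32686) if 2 or more arrays had it above their 40th percentile, and the one of highest mean stood for its gene (14581 genes). All 10 arrays were fitted together with limma 3.58.1 in R 4.3.3 (lmFit, eBayes with trend, 5 residual degrees of freedom, 1 mean per group), with 6 comparisons and 1 interaction, Benjamini-Hochberg adjustment over all tested genes within each, and a threshold of 0.05. The fit was tested on simulated data. The number of arrays limits the precision. For each comparison, the 4 called members of smallest p in each direction were named, with a list of known members, the 3 of smallest p with a sign opposite to the median, and 2 called genes of each pathway list. The members and lists were chosen with earlier results of these data known. Alternatives changed the scaling, filter, probe-set rule, variance model and groups fitted, blocked on the replicate number, or left out each array. Promoter windows came from RefSeq (GRCm38.p6), matched by symbol, and 5 members had none.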

Additional observations from a re-analysis of the deposited data

How the results depend on the processing

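In the comparisons of UNPD with UNSC and of UNTD with UNPD, the members' median kept its direction under every alternative but one, the 75th percentile as a covariate. With that covariate the medians were −0.31 for UNPD against UNSC, 0.42 for UNTD against UNPD, 0.20 for RAPD against UNPD, 0.15 for RATD against RAPD, −0.0404 for RATD against UNTD and −0.26 for the interaction. It left 0 called members in each of the 5 comparisons that had some (UNPD against UNSC, UNTD against UNSC, UNTD against UNPD, RAPD against UNPD and RATD against RAPD). Of the 14581 tested genes it called 0, 1398, 0, 15 and 8 in the same order. It turned the sign of Rpl10a (−0.0044), Rpl11 (−0.23), Rpl7l1 (−0.0409), Rps19 (−0.30), Rps27l (−0.16) and Rps7 (−0.10) in UNPD against UNSC, and of Rpl10a (0.0398), Rpl11 (0.23), Rpl13a (0.22), Rps19 (0.34), Rps27l (0.0017) and Rps7 (0.0358) in UNTD against UNPD. The percentile differs between the groups, so covariate and group are partly the same quantity in this fit.

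Quantile normalization gave 4 called members in UNPD against UNSC and medians of 0.0563 there, −0.11 in UNTD against UNPD and 0.0593 for the interaction. It called 4102 of all 14581 tested genes in UNPD against UNSC. A common 75th percentile gave 38, 39 and 6 called members in UNPD against UNSC, UNTD against UNPD and RAPD against UNPD, with medians of 0.77, −0.84 and −0.35, and medians of −0.30 for RATD against RAPD and 0.52 for the interaction. In the same 3 comparisons it called 6055, 6450 and 1842 of the 14581 tested genes. These 2 scalings moved the median of all tested genes in UNPD against UNSC from 0.20 to 0.31 and to 0.60. A common median of the other bright genes gave 20 and 4 called members in UNPD against UNSC and RAPD against UNPD, and 4341 and 1340 called of all tested genes. Without the filter 4 and 10 members were called in UNPD against UNSC and UNTD against UNPD. Of the 18193 genes then tested, 3543 and 4975 were called. Without the trend the counts of members were 2, 6, 0 and 0 in UNPD against UNSC, UNTD against UNPD, RAPD against UNPD and RATD against RAPD. Over all tested genes they were 2323, 4276, 29 and 28. With array weights the members called were 24, 3, 1 and 0 in UNPD against UNSC, UNTD against UNSC, RAPD against UNPD and RATD against RAPD, and with only the compared groups fitted 37, 5, 1 and 0. Over all tested genes these counts were 5512, 2924, 958 and 141, and 5442, 3291, 796 and 58. Rps20 reversed in UNPD against UNSC with the mean of a gene's probe sets (−0.86) and with probe sets of suffix x or s left out (−2.10). The last of these, chosen after seeing the data, called 2 members in UNTD against UNSC, and 1119 of the 14223 genes tested there.

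The replicate number as a block gave 7, 0 and 0 called members in UNPD against UNSC, UNTD against UNSC and RATD against RAPD. Over all tested genes 3374, 1014 and 371 were called. The replicate numbers did not pair the arrays: of 10 pairs of same-numbered arrays 0 had deviations correlated above 0.1 (−0.0942 to 0.0245).

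With 1 array left out, the called members ran from 0 to 17 in UNPD against UNSC, 0 to 1 in UNTD against UNSC, 3 to 23 in UNTD against UNPD, 0 to 5 in RAPD against UNPD, 0 to 1 in RATD against UNTD, 0 to 2 in RATD against RAPD and 0 to 2 for the interaction. The medians ran from 0.34 to 0.44, −0.20 to 0.19, −0.55 to −0.18, −0.31 to −0.0077, −0.10 to 0.32, −0.27 to −0.0069 and 0.0458 to 0.45 in the same order. A group left with 1 array is assumed to vary like the others. With 2 arrays a group, and with most members near the top of the signal range, small differences between groups are not resolved; the causes of these changes were not tested.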

Other observations

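Genes that handle ribosomal proteins before assembly went both ways. Of 13 tested chaperones and importers of ribosomal proteins, 2 were called higher and 6 lower in UNPD than in UNSC by limma, with a median of −0.47, where the ribosomal protein genes had 0.37 and all tested genes 0.20. Over all tested genes 10.6% were called higher and 15.2% lower. With the array's 75th percentile as a further term no gene was called in this comparison. Tnpo1, an import receptor, differed by −1.94 ± 0.36 and Ltv1, a factor that carries the small subunit out of the nucleus, by −1.08 ± 0.22. Heatr3, an importer of Rpl5, was lower in UNTD than in UNSC (−0.88 ± 0.22, adjusted p = 0.0287). Pdcd2, a chaperone of Rps2, was lower in UNTD than in UNPD (−1.23 ± 0.19).

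Of 8 tested genes of the axis from ribosomal proteins to Mdm2 and p53, 4 were called lower in UNPD than in UNSC and 4 higher in UNTD than in UNPD, comparisons that share the UNPD arrays. Over all tested genes 15.2% were called lower in the former and 18.0% higher in the latter. With the array's 75th percentile as a further term no gene was called in either comparison. Mdm2, the ligase that degrades p53, read 10.05 and 9.91 in UNSC, 8.67 and 9.09 in UNPD, 10.19 and 9.99 in UNTD, 9.67 and 9.55 in RAPD and 10.04 and 10.44 in RATD. Pmaip1, a cell death gene that p53 turns on, differed by −1.85 ± 0.30 between UNPD and UNSC. Not all of the 8 genes were lower in UNPD. Their differences ran from −1.85 to 0.61 (Bbc3) with a median of −0.48, and none was called higher. Cdkn1a, a cell cycle inhibitor, read 11.58 and 11.34 in UNSC, 11.96 and 12.14 in UNPD and 10.67 and 10.70 in RAPD. It was called lower in RAPD than in UNPD (−1.37 ± 0.23, adjusted p = 0.00954). Myc, a driver of ribosome production, lay between 11.25 and 12.15 on the 10 arrays and was not called in any comparison. Of the 7 tested genes of the Myc list, Mxd3, which shares Myc's partner Max, was called higher in UNPD than in UNSC (1.45 ± 0.23).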
